A study of Danio rerio with 6 samples.

Results

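The nitr genes of zebrafish, which encode immune-type receptors, were taken as every gene whose symbol begins with nitr and a number. A table of gene names held 24 such symbols, and 21 of them, in 13 numbered subfamilies, were found among the 32267 features of the deposited table. The other 3 (nitr1b, nitr1k and nitr6b) had no feature there and were not analysed here. The RNA came from unfractionated cells of whole kidney marrow, the main blood-forming tissue of adult zebrafish, in the TLEK background strain. There were 3 control libraries of wild-type genotype and 3 il7 mutant libraries, in which il7, the gene of the cytokine interleukin 7, carries an internal deletion of exons 2 to 4. The study asked what il7 does in lymphocyte development. The labels used here give no age, no sex and no number of fish per library, so a p-value here reflects nothing but the scatter of these samples, which may be technical.

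Nitr proteins are cell surface receptors of the immunoglobulin superfamily that are found in bony fish. Most carry an outer variable-type domain like that of antigen receptors, although their genes do not undergo V(D)J recombination. Many have inhibitory tyrosine motifs in the cytoplasmic tail, which recruit phosphatases such as the one encoded by ptpn6. Others signal through activating adaptors: zebrafish Nitr9 pairs with Dap12, the product of tyrobp. The family is compared with the receptors of mammalian natural killer cells, and in fish its transcripts are found in lymphocytes. Most members lie side by side in a cluster of similar copies, and the set of copies differs between zebrafish haplotypes.

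Depth ran from 34496353 to 46120889 reads on genes per library, with control 1 the deepest. The targeted gene il7 stood at 89.8, 61.6 and 57.7 normalized counts in controls 1 to 3. In il7 mutants 1 to 3 it stood at 16.5, 17.8 and 4.00, and the groups did not overlap. Its log2 change between mutants and controls was −2.55 (SE 0.66), yet the limma test used here did not call il7 after adjustment over all genes. A gene that limma does not call can therefore still differ between the groups. Control 1 and il7 mutant 2 stood apart from the rest by their egg transcripts, with 55926.9 and 31204.7 normalized counts of the egg coat gene zp3b against 52.1 to 68.7 in the other libraries, and likewise 36715.9 and 17983.5 of the oocyte gene buc against 27.0 to 67.7. The nitr results, and sign counts or medians for most of the related gene lists, are therefore also given without this pair. Libraries outside this pair differed too: the 2 muscle markers found summed to 49382.1 in control 3 and 96529.6 in il7 mutant 1, against 2883.9 to 10926.0 elsewhere. Markers of the labelled tissue were present in all 6 libraries, among them lyz of neutrophils, ighm of B cells, hbaa1 of red cells and CDH17 of kidney tubules. Over the whole table the limma test passed 0 of 20782 genes at an adjusted 0.05, while 723 had an unadjusted p under 0.05, and the authors' deposited table holds 112 genes past an adjusted 0.05.

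Few nitr copies were read at all. Of the 21 genes, 9 had a read in at least 1 library and 12 were at 0 in all 6. The silent copies were nitr1a, nitr1f, nitr1i, nitr1m, nitr3b, nitr3r.1l, nitr4a, nitr5, nitr6a, nitr7a, nitr7b and nitr9, so subfamilies 4, 5, 6, 7 and 9 had no read. A count of 0 allows up to 3 reads in a library, a level of 0.065 to 0.087 RPM (reads per 1000000 reads of the library) at these depths, an allowance for counting error only. Among the silent copies was nitr9, the member with a known activating partner, while tyrobp itself had between 0 and 9.99 normalized counts per library. Of the nitr1 copies with a feature, 4 of 5 were silent and only nitr1o was read, and in nitr3 2 of 3 were silent and only nitr3a was read. RefSeq lists 31 nitr genes, some of which, such as nitr1c and nitr3c, have no feature of that name here. These fractions and the subfamily sums below therefore do not cover whole subfamilies. Reads that map equally well to near-identical copies can be lost or split by the counting, whose settings the sources used here do not give, so a 0 does not show that a copy is not transcribed.

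**Figure D1:**
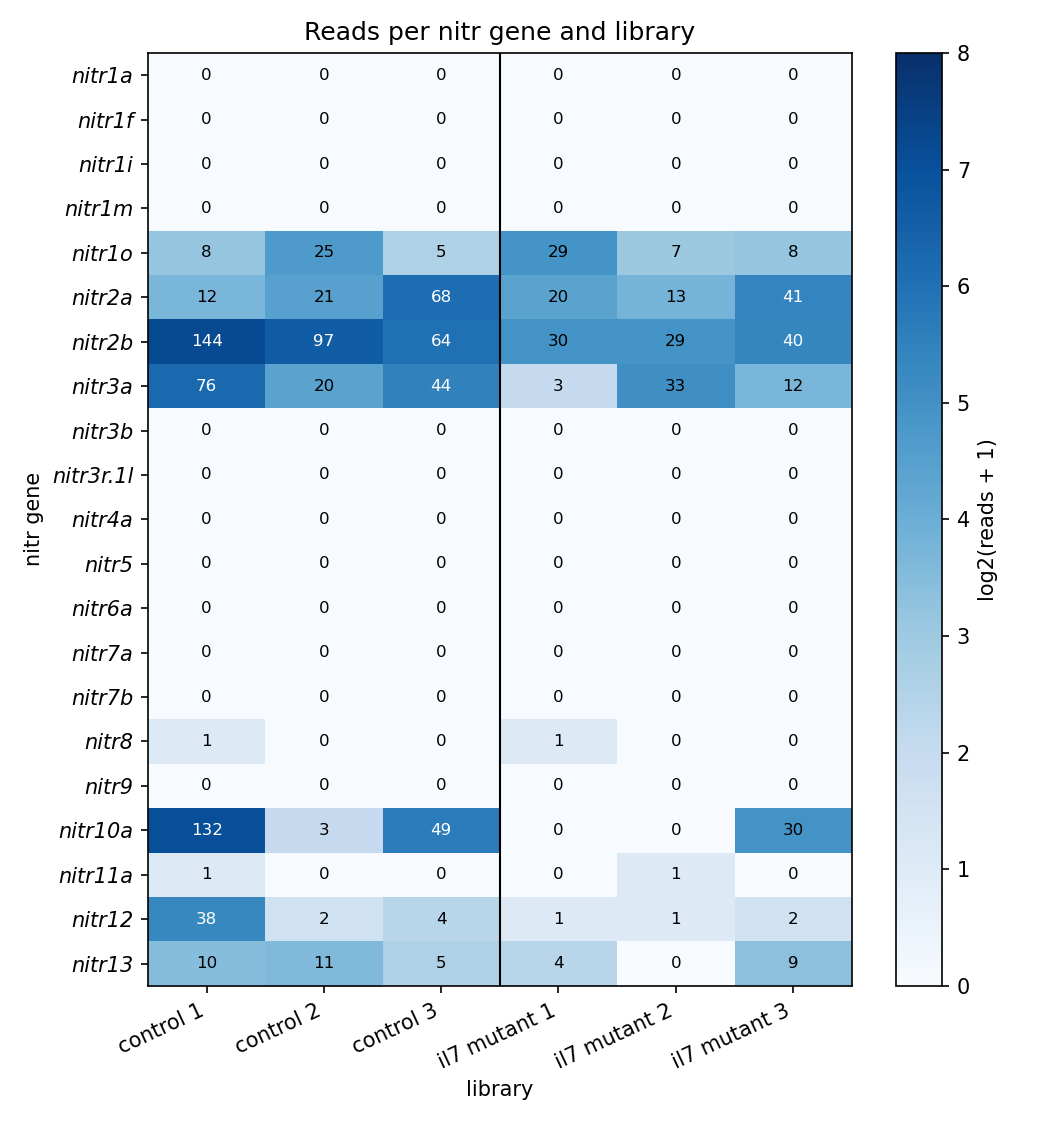
Reads assigned to each of the 21 nitr genes (vertical) in each of the 6 libraries (horizontal), with the number of reads printed in each cell and the shade showing log2(reads + 1). The 12 silent copies are rows of 0, nitr2a and nitr2b have at least 10 reads in every library, and nitr10a ranges from 132 reads in control 1 to 0 in il7 mutants 1 and 2.

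Only nitr2a and nitr2b had at least 10 reads in all 6 libraries. Each library showed reads of 6 to 9 of the 21 copies. The number with at least 10 reads was 6, 5 and 4 in controls 1 to 3 and 3, 3 and 4 in il7 mutants 1 to 3. Of the 9 genes with reads, 5 had a mean of at least 10 normalized counts and entered the test (nitr1o, nitr2a, nitr2b, nitr3a and nitr10a). The other 4 (nitr8, nitr11a, nitr12 and nitr13) were below this filter, and nitr8 and nitr11a never had more than 1 read in a library. That read was in control 1 and il7 mutant 1 for nitr8 and in control 1 and il7 mutant 2 for nitr11a, so neither gene can be compared at this depth.

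As a whole the family was lower in the il7 mutants. Its summed normalized count was 332.4, 180.9 and 265.1 in controls 1 to 3 and 103.7, 83.3 and 141.9 in il7 mutants 1 to 3, so the groups did not overlap. The means were 259.5 ± 75.9 and 109.6 ± 29.7 (SD, n = 3), which leaves 42.3% of the control mean. The difference of the mean log2(sum + 1) was −1.23, and −0.85 without control 1 and il7 mutant 2. No p-value is attached to this sum, because the genes were chosen as a family with earlier results known. As RPM of the library total, the family took 9.15, 4.53 and 6.14 in controls 1 to 3 and 2.55, 2.34 and 3.62 in il7 mutants 1 to 3. In bulk marrow, fewer cells of a type and less RNA per cell cannot be told apart. Without nitr2b the sums were 219.0, 82.9 and 194.1 in controls and 68.4, 54.5 and 101.9 in mutants, and the groups overlapped, since control 2 lay below il7 mutant 3, a library with 30.0 normalized counts of nitr10a against 3.03 in control 2. Without both nitr2b and nitr10a the sums were 115.0, 79.8 and 139.8 in controls and 68.4, 54.5 and 71.9 in mutants, with no overlap. Leaving out nitr10a alone also left the groups apart, at 177.8 to 228.4 and 83.3 to 111.9. The genes left out were picked with these values known, so these sums are no test of the rest of the family.

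**Figure D2:**
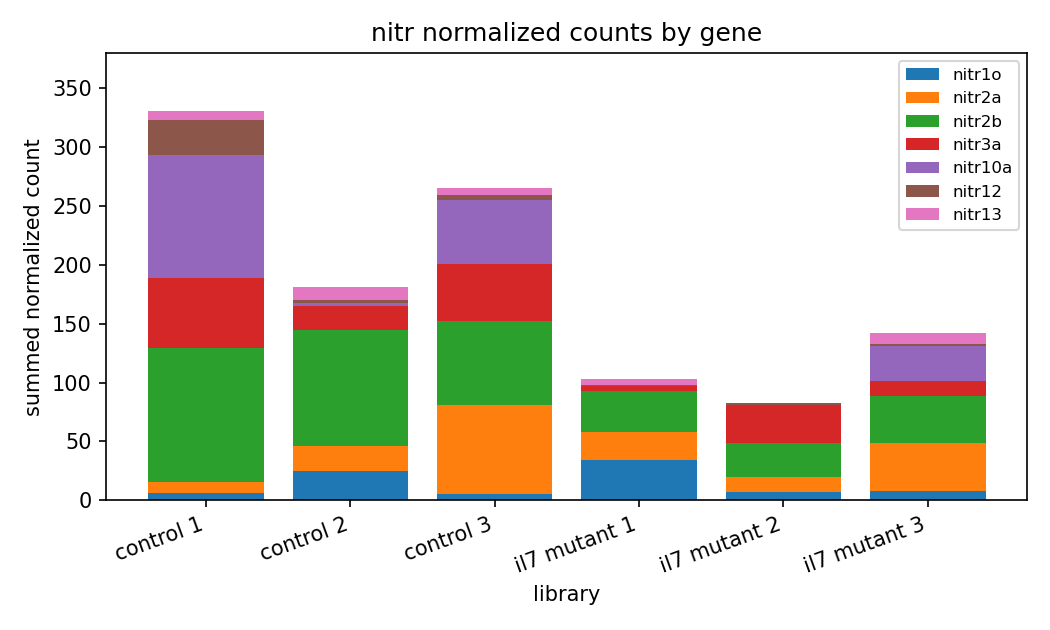
Summed normalized counts of the nitr genes (vertical) in each library (horizontal), with each gene in its own colour, for the 7 genes with more than 1 read in any library. The bars of controls 1 to 3 reach 332.4, 180.9 and 265.1 when all 21 genes are summed and those of il7 mutants 1 to 3 reach 103.7, 83.3 and 141.9, and nitr10a is a thick band in control 1, control 3 and il7 mutant 3 alone.

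Of the 5 genes tested, 4 had a negative log2 change, as had 54.1% of all fitted genes, and 1 a positive one, with a median of −1.40 against −0.04 over all fitted genes. None of the 5 passed the limma test after adjustment over all genes, where the background was 0% called. With no adjustment 1 of 5, nitr2b, had a p under 0.05, against 3.48% of all fitted genes. The groups did not overlap for 1 of 5, again nitr2b, which was lower in the mutants, against 4.44% lower and 7.94% in either direction over all fitted genes. Controls set the filter in part, since nitr10a passed it through control 1 and control 3 and had a mutant mean of 9.99. It is counted among the 4 negative genes and in the median, so neither is a test of the family. The changes of the other 4 genes were −1.67 (nitr3a), −1.40 (nitr2b), −0.10 (nitr2a) and 0.33 (nitr1o).

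The clearest difference between the groups was in subfamily 2, whose genes nitr2a and nitr2b follow each other in RefSeq's order of the nitr genes. Their summed normalized count was 122.9, 119.2 and 146.4 in controls 1 to 3 and 58.9, 41.6 and 80.9 in il7 mutants 1 to 3, with no overlap. The means were 129.5 ± 14.8 and 60.5 ± 19.7 (SD, n = 3), a 2.14-fold higher level in controls. On the log2(sum + 1) scale the difference was −1.13, and −0.93 without the pair of egg-rich libraries.

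Most of this difference in means lay in nitr2b (ENSDARG00000000460). It stood at 113.4, 98.0 and 71.0 normalized counts in controls 1 to 3 and at 35.4, 28.8 and 40.0 in il7 mutants 1 to 3. The lowest control lay well above the highest mutant, and the mutant mean was 36.9% of the control mean (94.1 ± 21.5 and 34.7 ± 5.63, SD, n = 3). In limma the change on the log2(normalized count + 1) scale was −1.40 (SE 0.39), with an unadjusted p of 0.0104, which ranked 183 of 20782 genes, and an adjusted p of 1.00. The two-sided exact permutation test gave p = 0.1, the smallest that 3 against 3 libraries allow. Any gene whose groups do not overlap reaches this value, so it adds nothing to the non-overlap. The authors' deposited table calls 0 of the 7 nitr genes with an adjusted p there, against 0.521% of all its genes with an adjusted p. It lists nitr2b at −1.44 log2 units (−1.20 when shrunken), with an unadjusted p of 4.9e-04 and an adjusted p of 0.079 in the authors' own test. The limma change of nitr2b lay between −1.25 and −1.59 on leaving out single libraries and was −1.13 without both egg-rich libraries.

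The groups overlapped for the other gene of the subfamily, nitr2a (ENSDARG00000043398). It had 9.45, 21.2 and 75.4 normalized counts in controls 1 to 3 and 23.6, 12.9 and 41.0 in il7 mutants 1 to 3. The control values spread wider than the mutant values and enclosed them. The log2 change was −0.10 (SE 0.86, limma adjusted p = 1.00), and turned to 0.67 without control 3 and to 0.30 without il7 mutant 2. Without both egg-rich libraries it was −0.36. Whether the changes of nitr2a and nitr2b differ was not tested.

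The balance between this pair of genes was not the same in all controls, in reads that are not adjusted for gene length. Of the subfamily's reads, nitr2b took 92.3% in control 1 (144 of 156 reads, exact 95% interval 86.9 to 96.0), 82.2% in control 2 (97 of 118, 74.1 to 88.6) and 48.5% in control 3 (64 of 132, 39.7 to 57.3). In the mutants it took 60.0% (30 of 50, 45.2 to 73.6), 69.0% (29 of 42, 52.9 to 82.4) and 49.4% (40 of 81, 38.1 to 60.7) in il7 mutants 1 to 3. The interval of control 3 did not meet those of the other controls, while the 3 mutant intervals overlapped. These intervals cover counting error only, because reads without molecular identifiers are not independent molecules.

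Subfamily 10 gave the sharpest pattern of on and off. Its 1 gene, nitr10a (ENSDARG00000087920), had 132, 3 and 49 reads in controls 1 to 3 and 0, 0 and 30 reads in il7 mutants 1 to 3. So it was on in control 1, control 3 and il7 mutant 3, near the floor in control 2 and at 0 in il7 mutants 1 and 2. As normalized counts these were 104.0, 3.03 and 54.4 in controls 1 to 3 and 0, 0 and 30.0 in il7 mutants 1 to 3. Both groups held high and low libraries, and the egg-rich libraries control 1 and il7 mutant 2 sat at opposite ends. The exact 95% Poisson interval of the 3 reads in control 2 was 0.619 to 8.77, below that of any library in which the gene was on. The log2 change was −3.19 (SE 1.81, limma adjusted p = 1.00), and the two-sided exact permutation p was 0.2. This value rests on single libraries and on the pseudocount: it was −2.25 without control 1, −4.84 without il7 mutant 3, −1.42 without both egg-rich libraries and −1.96 with a pseudocount of 5. Of all nitr reads nitr10a took 31.3%, 20.5% and 21.1% in control 1, control 3 and il7 mutant 3, against 1.68% in control 2 and no read in il7 mutants 1 and 2.

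In RefSeq's order of the nitr genes, nitr10a stands between nitr11a and nitr12 (ENSDARG00000098626), the single gene of subfamily 12. This last gene, nitr12, was read mainly in 1 library. It had 38 reads in control 1 against 2 and 4 in the other controls and 1, 1 and 2 in il7 mutants 1 to 3. Its groups did not overlap (normalized counts of 29.9, 2.02 and 4.44 in the control group, 1.18, 0.992 and 2.00 in the mutant group), but control 2 and il7 mutant 3 both held 2 reads and differed by the size factor alone. Below the filter, it was fitted only with the filter removed, with a log2 change of −1.76 (SE 0.90, limma adjusted p = 1.00), and −0.79 without control 1. Without both egg-rich libraries the difference of the mean log2 values was −0.67. The authors' deposited table lists nitr12 at −3.13 log2 units (−0.84 when shrunken) with an unadjusted p of 0.0459 and an adjusted p of 1.00.

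**Figure D3:**
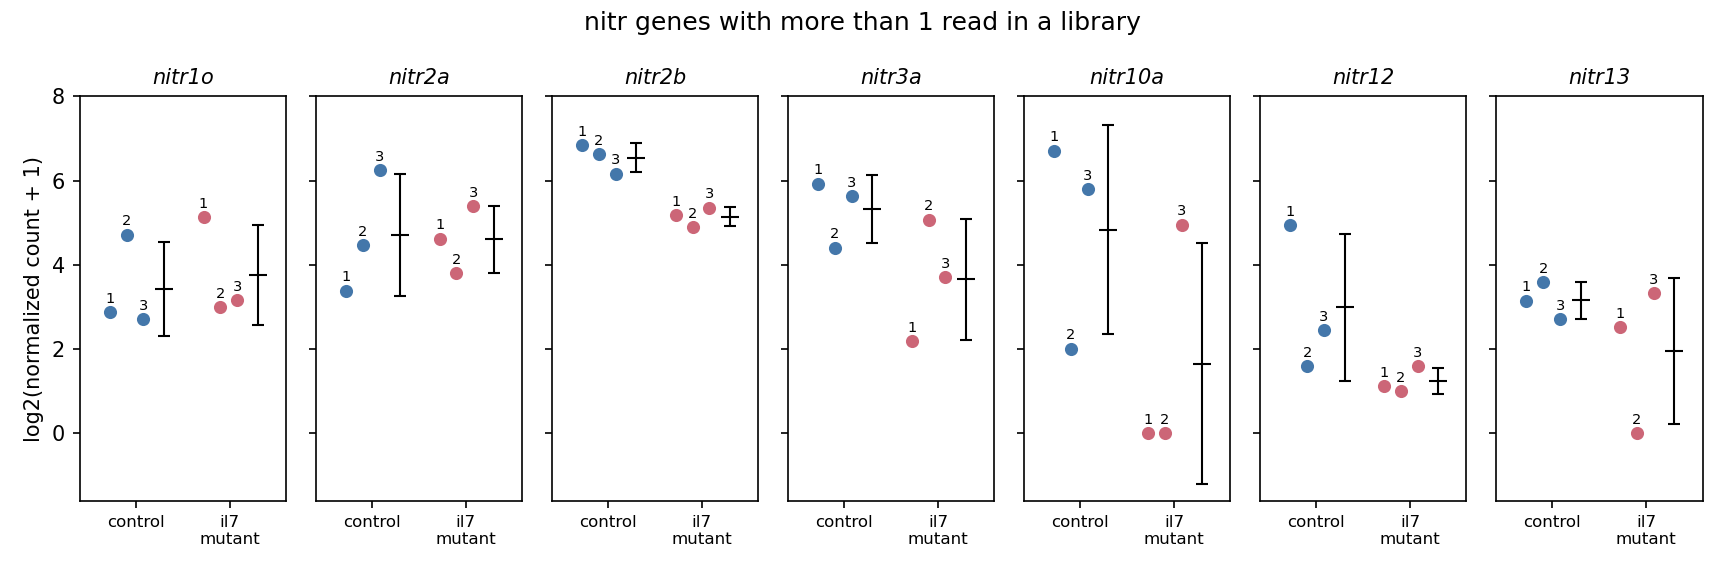
Values on the log2(normalized count + 1) scale (vertical) of the 7 nitr genes with more than 1 read in a library, by group (horizontal). Each point is a library, numbered by replicate, with control in blue and il7 mutant in red, and the bar beside the points gives the mean ± SD of 3 libraries; the 3 mutant points of nitr2b lie below its 3 control points, while nitr10a spans high and low libraries in both groups.

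In subfamily 3 the gene with reads was nitr3a (ENSDARG00000077998), with 59.9, 20.2 and 48.8 normalized counts in controls 1 to 3 and 3.54, 32.7 and 12.0 in il7 mutants 1 to 3. The highest mutant, il7 mutant 2, lay above control 2, so the groups overlapped. Means were 43.0 ± 20.5 and 16.1 ± 15.0 (SD, n = 3), and the log2 change was −1.67 (SE 0.87, limma adjusted p = 1.00). It was −0.94 without il7 mutant 1, which held 3 reads of the gene, the least of any library, and −2.08 without the egg-rich pair. As a share of all nitr reads nitr3a was largest in il7 mutant 2, at 39.3% (33 of 84 reads, exact 95% interval 28.8 to 50.5).

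Subfamily 1 had a higher mean in the mutants, set by single libraries. Its gene with reads, nitr1o (ENSDARG00000069773), had 6.30, 25.3 and 5.55 normalized counts in controls 1 to 3 and 34.2, 6.94 and 7.99 in il7 mutants 1 to 3. One library in each group was high, control 2 and il7 mutant 1, and the other 4 lay between 5.55 and 7.99. The log2 change was 0.33 (SE 0.90, limma adjusted p = 1.00), −0.35 without il7 mutant 1, 0.98 without control 2 and 0.44 without the egg-rich pair. In il7 mutant 1 this gene gave 33.0% of all nitr reads (29 of 88, exact 95% interval 23.3 to 43.8).

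The gene nitr13 (ENSDARG00000036125) lies apart from the main cluster in RefSeq. Its chromosome there also holds nitr14a and nitr14b, which have no feature of that name in the table. Reads of nitr13 were low throughout, with 10, 11 and 5 in controls 1 to 3 and 4, 0 and 9 in il7 mutants 1 to 3. Only il7 mutant 2 was without a read, and the groups overlapped. With the filter removed its log2 change was −1.21 (SE 0.91, limma adjusted p = 1.00), and −0.24 without il7 mutant 2. Without both egg-rich libraries the difference of its mean log2 values was −0.24. By the rule used here, at least 10 reads in 1 library and 0 in another, nitr10a and nitr13 were the 2 copies that were both on and off.

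**Figure D4:**
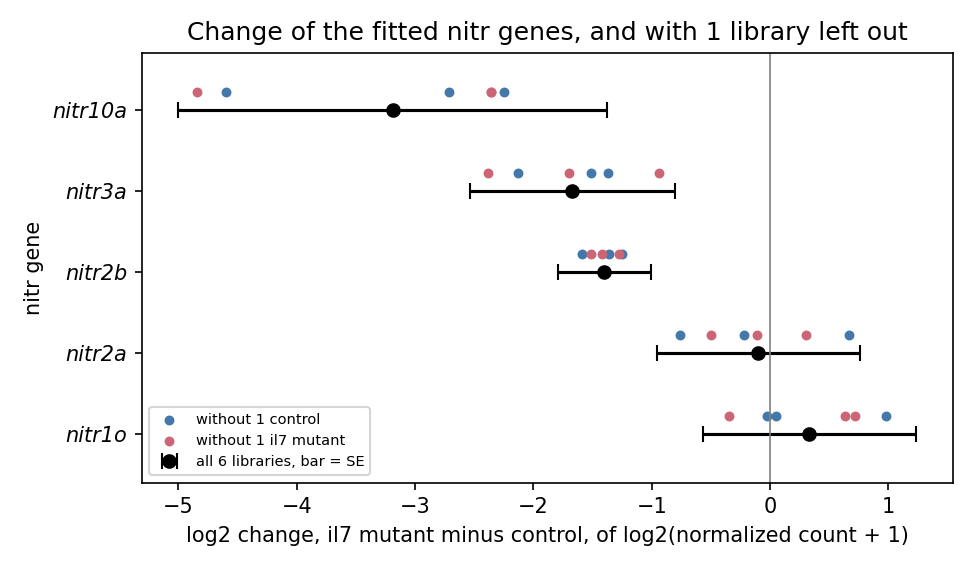
The limma change between il7 mutant and control on the log2(normalized count + 1) scale (horizontal) for the 5 nitr genes that passed the filter (vertical). Black points use all 6 libraries with the standard error as bar, and coloured points leave out 1 control (blue) or 1 il7 mutant (red); nitr2b stays between −1.25 and −1.59, nitr10a runs from −2.25 to −4.84, and nitr2a and nitr1o lie on both sides of 0.

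Genes that carry the signal of such receptors had mostly small log2 changes. Of 18 listed partners 15 were found and 14 fitted, and 2 were higher and 12 lower (54.1% of all fitted genes were lower), with a median log2 change of −0.07 against −0.04 over all fitted genes. None passed the limma adjustment. An unadjusted p under 0.05 was seen for 1 of the 14, against 3.48% of all fitted genes, and 2 of the 14 did not overlap between the groups, against 7.94%. Without the egg-rich pair, 6 were higher and 8 lower, with a median of −0.16. In that fit 52% of all fitted genes were lower, which is the background for each list without the pair. The gene with the unadjusted p under 0.05 was cd247, a signalling chain of T cell and natural killer receptors, at 24.4, 111.2 and 124.3 normalized counts in controls 1 to 3 and 191.0, 174.5 and 420.6 in il7 mutants 1 to 3, higher in each mutant (log2 change 1.77, SE 0.72, limma adjusted p = 1.00). ZAP70, the kinase that binds it, was lower in each mutant, at 104.8, 137.4 and 103.2 against 75.4, 34.7 and 90.9 (log2 change −0.87, SE 0.46, limma adjusted p = 1.00). The other partners overlapped between the groups. Among them were the activating adaptor genes hcst (log2 change −0.07, SE 0.39) and fcer1g (−0.07, SE 0.50). The kinase genes changed by −0.01 (SE 0.25) for SYK, −0.06 (SE 0.56) for LYN, −0.05 (SE 0.45) for lck and −0.16 (SE 0.34) for fynb in log2 units. The phosphatase genes that act behind inhibitory motifs had −0.24 (SE 0.29) for PTPN6, 0.35 (SE 0.44) for ptpn11b and −0.07 (SE 0.27) for INPP5D. The remaining log2 changes were −0.41 (SE 0.30) for PLCG2, −0.47 (SE 0.40) for sh2d1ab and −0.08 (SE 0.20) for grb2b.

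Markers of natural killer-like cells, taken as a sum like the nitr genes, were lower in every mutant than in any control, though not each marker singly. Their summed normalized count, over the 7 of 8 listed genes that were found, was 1922.8, 2392.8 and 1316.9 in controls 1 to 3 and 1200.1, 631.6 and 1039.0 in il7 mutants 1 to 3. Within the controls the order was not that of the nitr sum, since control 2 had the most of these markers and the least nitr. All 7 had a negative log2 change (54.1% of all fitted genes did), none was at 0, and 4 of the 7 did not overlap between the groups and were lower in the mutants, against 4.44% lower over all fitted genes. All marker lists were chosen with earlier results of these data known, so such shares are no test of a cell type. Without the egg-rich pair 6 of the 7 were lower. These 7 also belong to a wider list of 22 natural killer and cytotoxic genes, of which 16 were fitted, with 4 higher and 12 lower. The 4 higher members lie outside the 7 markers: the perforin genes prf1.5 (log2 change 0.57, SE 0.45) and prf1.6 (0.07, SE 0.78) and the granzyme genes gzma (0.03, SE 0.48) and gzmk (0.01, SE 0.56). In the wider list 0 passed the limma adjustment and 4 of 16 had an unadjusted p under 0.05, against 3.48% of all fitted genes, with a median log2 change of −0.60. Without the egg-rich pair 5 were higher and 11 lower, with a median of −0.29. The smallest p values belonged to prf1.2 (log2 change −1.31, SE 0.33), prf1.3 (−1.17, SE 0.38), both of them perforin genes, and the NK-lysin gene nkl.3 (−3.29, SE 0.86), each with a limma adjusted p of 1.00. T cell markers, of which 9 of 10 were found and none was at 0 everywhere, summed to 450.4 to 758.6 in controls and 314.3 to 481.6 in mutants, so their groups overlapped. All 7 T cell markers that were fitted had a negative log2 change, with a median of −0.60, and 2 of the 7 did not overlap between the groups, against 7.94% of all fitted genes. Without the egg-rich pair 5 of the 7 were lower. ZAP70 and lck of this list are also counted among the partners above. The gene cd247, which was higher in each mutant, is not on this list. B cell markers, with 6 of 8 found, overlapped too, at 5097.7 to 7438.0 and 3967.1 to 7610.6, with 5 of 6 lower and a median log2 change of −0.30. The part of any cell type in the nitr result was not tested.

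Relative to the natural killer-like markers the nitr values of the groups overlapped, and relative to the T cell markers they did not. For every 100 normalized counts of the natural killer-like markers there were 17.3, 7.56 and 20.1 of nitr in controls 1 to 3 and 8.64, 13.2 and 13.7 in il7 mutants 1 to 3, which overlap. The same ratio for nitr2b alone was 5.90, 4.10 and 5.39 in controls and 2.95, 4.55 and 3.85 in mutants, again with overlap. Per 100 normalized counts of the T cell markers, nitr had 43.8, 29.8 and 58.9 in controls and 22.4, 26.5 and 29.5 in mutants. These did not overlap, though control 2 and il7 mutant 3 all but met. Every fitted gene of both marker lists had a negative log2 change, and the lists were chosen with earlier results known. Dividing by such a sum brings the groups closer by construction, so neither ratio tests the part of a cell type.

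Other receptor families of fish with immunoglobulin domains had log2 changes of both signs. Of 8 dicp genes, whose products resemble Nitr proteins, 5 were fitted, with 2 higher and 3 lower and a median log2 change of −0.18. Those with the smallest p were dicp3.3 at −0.32 (SE 0.41), dicp2.1 at −0.60 (SE 0.76) and dicp1.1 at −0.18 (SE 0.29), each with a limma adjusted p of 1.00. The 3 fitted pigrl genes changed by 0.32 (SE 0.48) for pigrl4.2, −0.24 (SE 0.57) for pigrl3.5 and −0.12 (SE 0.50) for pigrl2.4. In both families the groups overlapped for every fitted gene, and over all fitted genes only 7.94% did not overlap. Without the egg-rich pair the medians were −0.24 for dicp and 0.01 for pigrl. Whether nitr differs from them was not tested.

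The 6 named coding genes that flank the main nitr cluster in RefSeq's order, a list added after the nitr values were known, overlapped between the groups (7.94% of all fitted genes did not). Their log2 changes ran from −0.39 for PRMT3 to 0.79 for SLC6A5, with a median of 0.08 and limma adjusted p of 1.00 for each. No on and off pattern like that of nitr10a was seen in them. The lowest flanking gene was SLC6A5, at 4.44 to 35.4 normalized counts, and the other 5 stood above 300 in every library. With those 5 far from 0 throughout, the flanking genes were no test of an on and off pattern.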

How the data were processed

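Per the labels' protocols, ribosomal RNA was depleted from total RNA and the libraries were stranded. Tools named in the submitters' processing notes are bcl2fastq 2.17.1.14, DESeq2 1.14.1, featureCounts 1.5.2 and STAR 2.5.3a, with the build GRCz10, and their roles are not stated. The deposited signal is a normalized count per gene, divided by 1 size factor per sample. The authors' deposited table also gives log2 fold changes, p-values and a Wald score, which was not used. Dividing each column by its smallest positive value gave whole numbers within 1e-06, and these are the reads given here. No count model was run on them.

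Symbols came from a gene name table, which named 26433 features (81.9%). Of the 21 nitr genes, 18 have a RefSeq entry of the same symbol in the assembly GRCz12tu, used only for the order of genes. No sequences are shown and no coordinates are given, since the files hold none.

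Sample titles gave the groups and replicate numbers. Genes averaging at least 10 normalized counts entered the limma test (version 3.58.1, R 4.3.3) of log2(normalized count + 1), with trended variance and Benjamini-Hochberg adjustment over all fitted genes at 0.05. Adding 1 shrinks log2 differences between low values, yet changes of low genes were not all smaller than in the authors' deposited table. The change of nitr10a was −3.19 here and −2.43 there (unshrunken). That of nitr12 was −1.76 with the filter removed and −3.13 there. These are unlike measures. The limma change is a difference of mean log2 values, while the deposited unshrunken change follows the ratio of the group means. That ratio, control over mutant, was 5.38 for nitr10a and 8.73 for nitr12. The limma step was also run on simulated data with the same spread for every gene. That cannot show how the step handles low genes with wide scatter. Intervals are exact (scipy 1.17.1). The nitr genes and all lists were chosen with earlier results of these data known. All nitr genes were named, with il7, zp3b, buc, every partner gene and the 3 genes of smallest p in each other related list. All replicates differed by more than sampling noise (smallest chi-square per degree of freedom 97.7). Alternatives covered pseudocount, filter, scaling, weights, block, left-out libraries and the on and off rule.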

Additional observations from a re-analysis of the deposited data

How the results depend on the processing

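Limma called 0 genes and 0 nitr genes under all 14 alternatives run, with a smallest adjusted p over all genes of 0.0634 (array quality weights) to 0.816 (replicate block). Array quality weights gave 1563 genes at an unadjusted p under 0.05 and the term for egg-rich libraries gave 1672, against 723. The signs of nitr2b, nitr3a and nitr10a held throughout. On leaving out 1 library, nitr1o ran from −0.35 to 0.98 and nitr2a from −0.76 to 0.67, and no other alternative turned a sign. The family sum ran from −0.85 to −1.46 log2 units. The number of copies on and off was 2, and became 1 with on set at 20 reads, 4 with off set at 3 reads or fewer (nitr3a and nitr12 added), and 1 without the egg-rich libraries. It ran from 1 to 2 on leaving out 1 library, with 1 without il7 mutant 2, which alone holds no nitr13 read. The block left the family sum at −1.23 and nitr2b at −1.40. Deviations of same-numbered libraries correlated at r = −0.51, −0.40 and 0.51 for numbers 1 to 3. The largest r, 0.73, was between control 1 and il7 mutant 2, the egg-rich libraries. The numbers were not taken as pairs, and with 3 libraries per group these correlations cannot settle whether they are. The gene lists without the egg-rich libraries were added after seeing the data, and again gave 0 calls. The planned count tests and the scaling on whole reads were not run. Few reads limit nitr8 and nitr11a (at most 1 in a library), nitr12 (1 to 4 outside control 1) and nitr13 (0 to 11), and library depth limits what a 0 can show.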
